A study of Rattus norvegicus with 8 samples.

Results

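Dystrophin links the actin cytoskeleton of a muscle fibre to the basement membrane outside it through a complex of membrane and cytoplasmic proteins. Inside the fibre dystrophin binds beta-dystroglycan, and outside the fibre alpha-dystroglycan binds laminin. The sarcoglycans form a subcomplex in the membrane beside dystroglycan, and syntrophins and dystrobrevins bind on the cytoplasmic side. Utrophin is a close relative of dystrophin that in adult muscle is concentrated at the neuromuscular and myotendinous junctions. Extraocular muscles, which move the eye, are known to be largely spared in Duchenne muscular dystrophy, the disease caused by loss of dystrophin.

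The genes described here are those of the dystrophin-glycoprotein complex and utrophin, taken as every probe set whose gene symbol in the platform annotation is Dmd, Utrn, Dag1, Sgca, Sgcb, Sgcd, Sntb1 or Dtna. Of these 8 genes, 6 had a probe set under that symbol, 15 probe sets in all out of 31042. No probe set carried the symbol Sgcd (delta-sarcoglycan) or Sntb1 (beta-1-syntrophin), and both were skipped. Of the 15 probe sets, 11 passed the filter on dim signals and were tested. They belong to 5 genes, and the other 4 include the single Dmd probe set.

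Expression was measured on 8 arrays, 1 per rat, of total RNA from extraocular muscles of adult Sprague-Dawley rats with an initial body weight of 200 ± 40 g. Of these rats, 4 were made hyperthyroid with abdominal injections of T3 (triiodothyronine, the active form of thyroid hormone) at 25 µg per 100 g of body weight, given on alternate days for 6 weeks, and tissue was taken 24 hours after the last dose. The control group of 4 was untreated, and no sham injection is given in the sources used here. Arrays are named by group and title number: hyperthyroid 1, 2, 3 and 5, and control 7, 8, 9 and 11.

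The array labelled hyperthyroid 5 stood apart. Myh13, the extraocular myosin, had a signal of 4.17 on it and 6225 to 9340 on the other hyperthyroid arrays, against 5430 to 9043 on the controls. The other 5 genes of the skeletal muscle marker list (Ckm, Acta1, Tnnt3, Myh4 and Mb) had signals between 15830 and 39535 on all 8 arrays. Hyperthyroid 2 and 5 were low in 4 oligodendrocyte and astrocyte markers (summed signal 1058 and 85.1). The same sum was 12200 on hyperthyroid 1 and 10028 on hyperthyroid 3, against a control range of 6848 to 15385. As a measure of RNA length, the signal of the 3 prime Gapdh probe set was divided by that of the 5 prime one, a ratio that increases as RNA shortens. It came to 3.91, 4.40, 2.18 and 1.44 on hyperthyroid 1, 2, 3 and 5, against 1.67 to 1.97 on controls. The same ratio for Actb was 5.53, 6.41, 4.41 and 3.33 on these hyperthyroid arrays, against 2.97 to 3.72 on controls. By Actb, hyperthyroid 5 thus lay within the control range and control 11 had the lowest ratio. Results are therefore given with and without hyperthyroid 5. Hyperthyroid 1, 2 and 3 were above every control in both ratios. In fits without hyperthyroid 5, group and RNA length therefore cannot be told apart.

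No gene of the complex passed the test between hyperthyroid and control muscle. On all 8 arrays limma called 0 of the 11 tested probe sets at an adjusted p under 0.05, and 0 of all 18625 (0%). At an unadjusted p under 0.05, 2 of the 11 were lower in hyperthyroid muscle and 0 were higher, both of them probe sets of Sgcb. Over all probe sets tested the share was 5.30% lower and 6.25% higher. Probe sets of the same gene are not independent. With the brightest probe set standing for each gene, 0 of the 5 genes were under an unadjusted p of 0.05 in limma. Over all genes 5.83% were lower and 6.34% higher. The median log2 difference was -0.20 over the 11 probe sets and 0.03 over all probe sets, and 10 of the 11 were below 0 against 8843 of 18625. With each array centred on its median, again 10 of the 11 were below 0, against 11066 of 18625. Without hyperthyroid 5 the median over the 11 was -0.06 against 0.04 over all, and 8 were below 0 against 8531 of 18625. That fit called 0 of the 11 at limma's adjusted p under 0.05 and 29 of all 18625 (0.156%), and 2 of the 11 were again lower at an unadjusted p under 0.05 (background 7.66%). In bulk muscle, fewer cells of a type and less RNA per cell cannot be told apart.

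**Figure D1:**
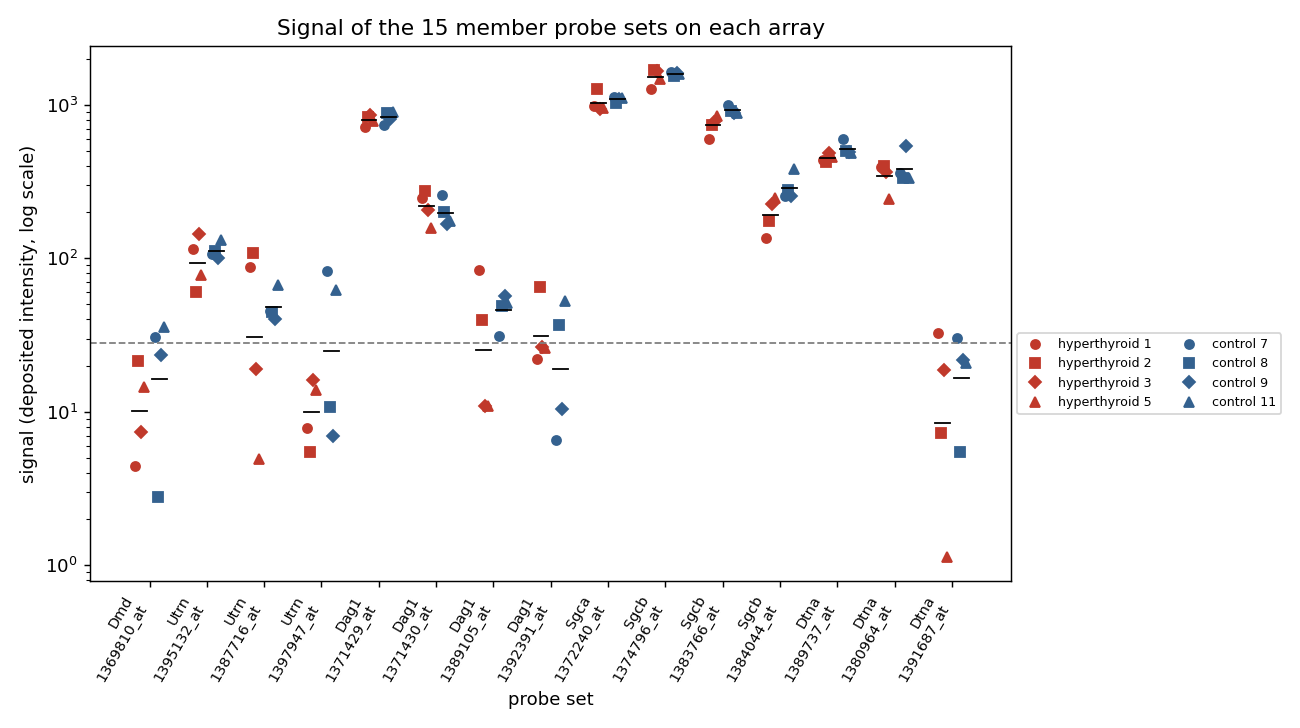
Signal (deposited intensity, log axis) of the 15 member probe sets on each array, hyperthyroid (red) left of control (blue). Black bars are geometric means and the dashed line is the filter level of about 28.2. Only Sgcb 1383766_at and 1384044_at have no overlap between the groups, and the Dmd probe set lies above the dashed line on 2 of the 8 arrays.

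The 2 member probe sets whose groups did not overlap both belong to Sgcb, 1 of the 2 member sarcoglycan genes with a probe set. Sgcb encodes beta-sarcoglycan, a transmembrane subunit that is mutated in a form of limb-girdle muscular dystrophy. In the GRCr8 rat assembly the gene lies on chromosome 14 from 34917663 to 34932661. It had 3 probe sets, all tested, and they did not behave alike.

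The probe set 1383766_at of Sgcb had signals of 601, 738, 775 and 847 on hyperthyroid 1, 2, 3 and 5, against 1001, 911, 888 and 883 on control 7, 8, 9 and 11. All 4 hyperthyroid values were below all 4 control values. The log2 difference was -0.32 ± 0.14 (SE, n = 4 each; unadjusted p = 0.0386, adjusted p = 0.414 in limma), with a mean signal of 740 ± 103 in hyperthyroid muscle and 921 ± 55.0 in control muscle (SD). Non-overlap with hyperthyroid lower was found for 3.23% of all tested probe sets.

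The dimmer probe set 1384044_at of Sgcb had signals of 137, 174, 227 and 248 on hyperthyroid 1, 2, 3 and 5, against 254, 280, 255 and 382 on control 7, 8, 9 and 11. The groups again did not overlap, but hyperthyroid 5 and control 7 were close. On the log2 scale it differed by -0.59 ± 0.23 (SE; unadjusted p = 0.0227, adjusted p = 0.357 in limma), with a mean signal of 196 ± 50.5 in hyperthyroid muscle and 293 ± 60.5 in control muscle (SD, n = 4 each).

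The brightest Sgcb probe set, 1374796_at, had signals of 1277, 1680.5, 1664 and 1482 on hyperthyroid 1, 2, 3 and 5, against 1638, 1544, 1620 and 1592 on controls 7, 8, 9 and 11. Hyperthyroid 1 and 5 were below every control and hyperthyroid 2 and 3 above every control. Between groups it differed by -0.08 ± 0.13 on the log2 scale (SE; adjusted p = 0.837 in limma), with a 95% interval from -0.35 to 0.20. The mean over the 3 probe sets differed by -0.33 ± 0.14 on the log2 scale (SE; adjusted p = 0.411).

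The Gapdh ratio differed among the hyperthyroid arrays, and the 2 lower Sgcb probe sets are given beside it. On 1384044_at the log2 signal stood at -1.08 and -0.73 from the control mean on hyperthyroid 1 and 2, whose Gapdh ratios were 3.91 and 4.40. It lay at -0.35 on hyperthyroid 3 (ratio 2.18) and at -0.22 on hyperthyroid 5 (ratio 1.44), with controls between -0.18 and 0.40. On 1383766_at the same arrays stood at -0.61, -0.32, -0.25 and -0.12. Hyperthyroid 2 had the highest Gapdh ratio and lay nearer the control mean than hyperthyroid 1 on both probe sets. Hyperthyroid 5 had the lowest Gapdh ratio of the 8 arrays. Its signal was 248 against a lowest control of 254 on 1384044_at, and 847 against 883 on 1383766_at. The part of RNA length in the Sgcb values was not tested. A fit with the log2 of the ratio as a covariate cannot tell it from group. In it hyperthyroid 1, 2 and 3 had higher ratios than every control. With that covariate, the differences in limma were -0.30 ± 0.22 for 1384044_at (unadjusted p = 0.195, adjusted p = 0.593) and -0.21 ± 0.15 for 1383766_at (unadjusted p = 0.187, adjusted p = 0.584). Without hyperthyroid 1 they were -0.43 ± 0.21 (unadjusted p = 0.0701) and -0.23 ± 0.13 (unadjusted p = 0.118), and without control 11 they were -0.46 ± 0.23 (unadjusted p = 0.0765) and -0.34 ± 0.16 (unadjusted p = 0.0533). Without hyperthyroid 5 they were -0.72 ± 0.22 (adjusted p = 0.170) and -0.39 ± 0.13 (adjusted p = 0.202). On 1383766_at the unadjusted p was under 0.05 only when hyperthyroid 5 was the array left out, and lay between 0.0508 and 0.118 when any other array was.

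**Figure D2:**
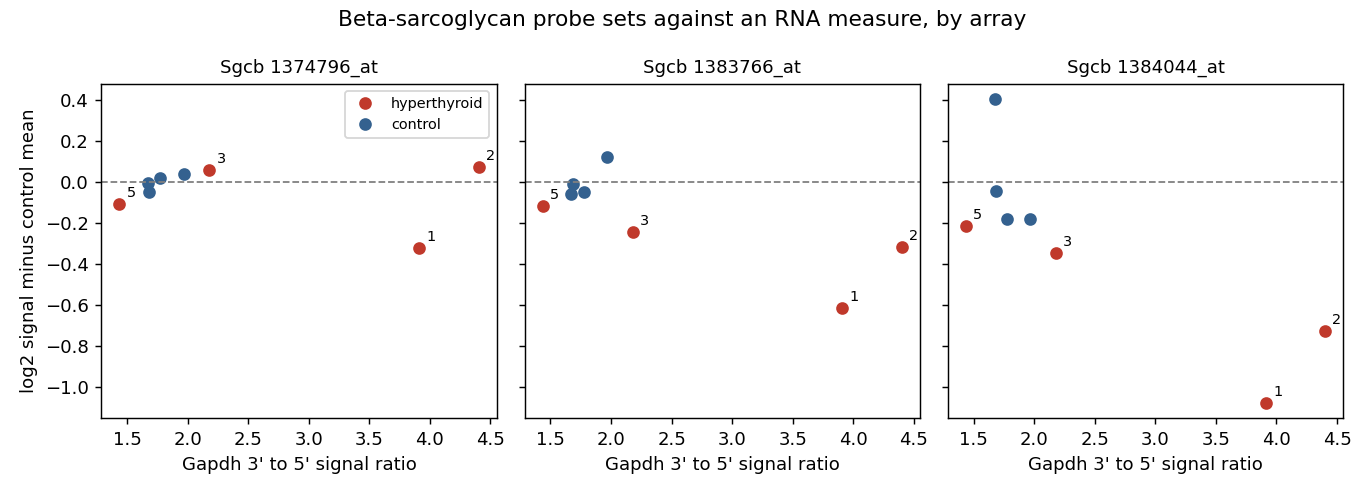
Log2 signal of the 3 Sgcb probe sets minus the control mean (vertical) against the Gapdh 3 prime to 5 prime signal ratio (horizontal), with 1 point per array and hyperthyroid arrays (red) numbered. On 1384044_at hyperthyroid 1 and 2 lie at -1.08 and -0.73 and hyperthyroid 5, with the lowest ratio, lies at -0.22. On 1374796_at hyperthyroid 2 lies at 0.07.

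The sequence before the Sgcb start is shown because Sgcb was the member gene with probe sets that separated the groups and the rats had been given a nuclear receptor ligand. It is the 250 bases before the start in the RefSeq table, build GRCr8, plus strand, chr14:34917413-34917662, printed 5′ to 3′.
Sgcb: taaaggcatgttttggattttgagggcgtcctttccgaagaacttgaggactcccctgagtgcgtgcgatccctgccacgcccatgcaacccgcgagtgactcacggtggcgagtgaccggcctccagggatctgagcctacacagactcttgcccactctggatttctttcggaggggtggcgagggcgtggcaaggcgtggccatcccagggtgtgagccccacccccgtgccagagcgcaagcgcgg
Searched on both strands, it held 0 copies of AGGTCA, the half-site that thyroid hormone receptors bind, so no base is in capitals. AGGTCA was found in 14.1% of the 33465 such windows in the table. The E-box CANNTG, bound by myogenic factors, had 0 copies here and was in 65.5% of windows, and GGGCGG had 0 copies and was in 30.5%. These letters are thus not in this window, which covers only the bases printed.

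Sgca encodes alpha-sarcoglycan, the sarcoglycan restricted to striated muscle. Its probe set had signals of 986, 1263, 946 and 951 on hyperthyroid 1, 2, 3 and 5, against 1132, 1029, 1091 and 1113 on control 7, 8, 9 and 11. Hyperthyroid 1, 3 and 5 were below every control and hyperthyroid 2 was above every control. The log2 difference was -0.08 ± 0.13 (SE, n = 4 each; adjusted p = 0.825 in limma; 95% interval -0.37 to 0.21), and without hyperthyroid 2 and 5 it was -0.18 ± 0.13.

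Dag1 encodes dystroglycan, the precursor that is cut into the laminin-binding alpha chain and the transmembrane beta chain. Its brightest probe set, 1371429_at, had signals of 717, 833, 853 and 785 on hyperthyroid 1, 2, 3 and 5, against 744, 882, 807 and 895 on control 7, 8, 9 and 11. The groups overlapped over most of their range. It differed by -0.06 ± 0.13 on the log2 scale (SE; adjusted p = 0.874), with a 95% interval from -0.34 to 0.22.

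The other tested Dag1 probe sets stood on both sides of 0. Dag1 1371430_at had signals of 158 to 276 in the hyperthyroid group, against 168 to 260 in controls (log2 difference 0.13 ± 0.22, and 0.29 ± 0.20 without hyperthyroid 5). Dag1 1389105_at had 83.6, 39.7, 10.9 and 10.9 on hyperthyroid 1, 2, 3 and 5, against 31.1 to 56.7 on controls (log2 difference -0.87 ± 0.70). That value moved to -0.47 without hyperthyroid 5, to -0.47 without hyperthyroid 3, to -1.45 without hyperthyroid 1 and to -1.84 ± 0.69 with the Gapdh ratio in the fit (unadjusted p = 0.0207, adjusted p = 0.276 in limma). Hyperthyroid 3 and 5 lay under the filter level on it and hyperthyroid 1 was above all controls. The last, 1392391_at, was too dim to test, with 21.9 to 64.9 in the hyperthyroid group, against 6.52 to 53.1 in controls.

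Dmd encodes dystrophin. Its single probe set had signals of 4.42, 21.5, 7.40 and 14.5 on hyperthyroid 1, 2, 3 and 5, against 30.6, 2.80, 23.5 and 35.6 on control 7, 8, 9 and 11. Only control 7 and 11 were above the filter level, and the groups overlapped. It was not tested in the fit across all probe sets. With no filter the log2 difference was -0.70 ± 1.00 (SE; adjusted p = 0.848 in limma). At these signals no level of dystrophin mRNA can be read from the array.

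Utrn had 2 tested probe sets. On the brighter one, 1395132_at, signals were 115, 59.9, 144 and 78.1 on hyperthyroid 1, 2, 3 and 5, against 107, 112, 100 and 131 on control 7, 8, 9 and 11. Hyperthyroid 2 and 5 were below all controls and hyperthyroid 3 above all of them. Hyperthyroid minus control was -0.25 ± 0.29 on the log2 scale (SE; adjusted p = 0.748; 95% interval -0.89 to 0.38), and it was 0.20 ± 0.26 without hyperthyroid 2 and 5.

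Utrn 1387716_at spread more widely among hyperthyroid arrays, with 88.4, 109, 19.0 and 4.89 on hyperthyroid 1, 2, 3 and 5, against 45.4, 44.9, 40.0 and 66.6 on control 7, 8, 9 and 11. Hyperthyroid 1 and 2 were above every control and hyperthyroid 3 and 5 below every control. The SD of its log2 signal was 2.10 in hyperthyroid arrays and 0.32 in controls. Its log2 difference was -0.65 ± 0.86 (SE; adjusted p = 0.788), and 0.23 ± 0.57 without hyperthyroid 5. Once the Gapdh ratio entered the fit it was -2.30 ± 0.55 (unadjusted p = 0.00150, adjusted p = 0.109 in limma). That fit cannot tell RNA length from group, and hyperthyroid 3 and 5 lay under the filter level on this probe set. With 32 added before log2 and no covariate, the log2 difference was -0.10 ± 0.38. The remaining Utrn probe set, 1397947_at, was too dim to test, with 5.48 to 16.1 in the hyperthyroid group, against 6.90 to 82.8 in controls.

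On hyperthyroid 5, where Utrn 1387716_at was lowest, genes of Schwann cells were also low. Drp2 is a dystrophin relative that binds periaxin in Schwann cells. The brightest of its 5 probe sets had a signal of 3.09 on that array. It had 67.5 to 181 on the other hyperthyroid arrays, against 63.1 to 105 on controls. Prx, periaxin, had 28.1 on hyperthyroid 5 and 240 to 405 on the other hyperthyroid arrays, against 249 to 320 on controls. The 4 Schwann cell markers summed to 3210 on hyperthyroid 5 and 6685 to 13399 on the other hyperthyroid arrays, against 7388 to 14491 on controls. Most of that sum on hyperthyroid 5 was Pmp22 (2369). Pmp22, Prx and Cnp were at their lowest of the 8 arrays there. S100b was not, with 614 on hyperthyroid 5 and 334 on hyperthyroid 2. On hyperthyroid 3, where Utrn 1387716_at was 19.0, the sum was 6878 and Prx was 240. On hyperthyroid 2, where Utrn 1387716_at was 109, its highest value, the sum was 6685 and Prx was 335. The brighter Utrn 1395132_at was 144 on hyperthyroid 3, the highest of the 8 arrays, and 59.9 on hyperthyroid 2. The part of these cells in the Utrn values was not tested.

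Utrn was also set against Dmd within arrays, using the brightest probe set of each. The log2 signal of Utrn minus that of Dmd was 4.70, 1.48, 4.29 and 2.43 on hyperthyroid 1, 2, 3 and 5, against 1.80, 5.31, 2.09 and 1.88 on control 7, 8, 9 and 11. Hyperthyroid 1 and 3 and control 8, the highest, are the 3 arrays on which Dmd had its lowest signals (4.42, 7.40 and 2.80). As the Dmd probe set was above the filter level on only 2 of 8 arrays, nothing about utrophin relative to dystrophin can be read from these differences.

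Dtna encodes alpha-dystrobrevin, which binds dystrophin and syntrophins. Its brightest probe set, 1389737_at, had signals of 434, 422, 488 and 455 on hyperthyroid 1, 2, 3 and 5, against 601, 498, 492 and 485 on control 7, 8, 9 and 11. The groups overlapped only through hyperthyroid 3 and control 11. The log2 difference was -0.20 ± 0.14 (SE; unadjusted p = 0.165, adjusted p = 0.579), and -0.21 ± 0.14 without hyperthyroid 5. Dtna 1380964_at had 391, 399, 364 and 245 on hyperthyroid 1, 2, 3 and 5, against 334 to 535 on controls, and stood at -0.16 ± 0.21 on all arrays and at 0.0018 ± 0.18 without hyperthyroid 5. Dtna 1391687_at was too dim to test, with 1.14 to 32.6 in the hyperthyroid group, against 5.44 to 30.1 in controls.

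**Figure D3:**
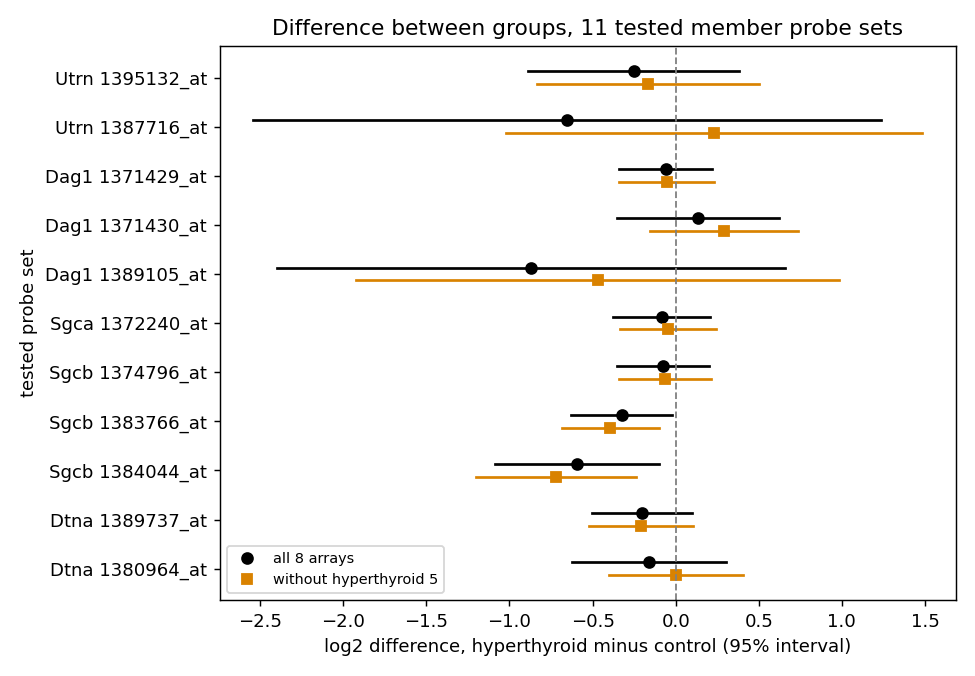
Log2 difference, hyperthyroid minus control, of the 11 tested member probe sets with 95% intervals from limma. Black circles are all 8 arrays and orange squares leave out hyperthyroid 5. Intervals exclude 0 only for Sgcb 1383766_at (-0.63 to -0.02) and 1384044_at (-1.09 to -0.10), before any adjustment for the number of probe sets.

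The intervals were in general wider for dimmer probe sets, which is partly built in because the fit moderates variances along a trend on signal. Those of Sgcb 1374796_at, Dag1 1371429_at and Sgca ran no lower than -0.37 and no higher than 0.22 on the log2 scale. Those of Utrn 1387716_at and Dag1 1389105_at ran from -2.54 to 1.24 and from -2.40 to 0.66, so a 2-fold decrease was within both. A 2-fold increase was within the interval of Utrn 1387716_at and outside that of Dag1 1389105_at. By array, the median of the 11 probe sets lay at -0.15, 0.01, -0.08 and -0.22 from the control mean on hyperthyroid 1, 2, 3 and 5, against -0.06 to 0.03 on controls. On hyperthyroid 5 all 11 were below their control mean, and 3 of them were the lowest of the 8 arrays. The summed markers of fibroblasts, adipocytes and leukocytes were highest on that array. The 6 fibroblast markers summed to 41804 on hyperthyroid 5 and 12759 to 21408 on the other hyperthyroid arrays, against 19184 to 36612 on controls. These 6 did not move together. Col1a1, Col1a2 and Dcn were highest on hyperthyroid 5, and Col3a1 had 13279 there against 14196 on control 11. Lum (931) and Pdgfra (604) were at their lowest of the 8 arrays on hyperthyroid 5. The 5 adipocyte markers summed to 6384 on hyperthyroid 5 and 875 to 3078 on the other hyperthyroid arrays, against 1811 to 2635 on controls. The 5 leukocyte markers summed to 2923 on hyperthyroid 5 and 739 to 1065 on the other hyperthyroid arrays, against 959 to 1355 on controls. The part of these cells in the lower member values was not tested.

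A further 5 lists covered other genes of this system, and 47 of their 61 genes were tested. None passed at an adjusted p under 0.05 in limma, on all 8 arrays or without hyperthyroid 5, against 0% and 0.124% of all 10446 genes. At an unadjusted p under 0.05 on all 8 arrays, 3 of the 47 were lower and 1 was higher, against 5.83% and 6.34% of all genes.

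Other subunits and partners of the complex held all 3 of the lower genes. Of the 13 genes in this list 6 were tested, 5 of them below 0, with a median log2 difference of -0.47 against 0.01 over all genes. Without hyperthyroid 5 the median was -0.36, 4 were below 0, and 1 of the 6, Sspn, remained under an unadjusted p of 0.05 (background 8.24%).

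Sspn encodes sarcospan, the small membrane protein that associates with the sarcoglycans. Its brightest probe set had signals of 1110, 1621, 1524 and 1006 on hyperthyroid 1, 2, 3 and 5, against 1828, 1882, 1739 and 1947 on control 7, 8, 9 and 11. All 4 hyperthyroid values were below all controls, as for 3.23% of all tested probe sets. The log2 difference was -0.52 ± 0.16 (SE; unadjusted p = 0.00858, adjusted p = 0.310 in limma), and -0.40 ± 0.14 without hyperthyroid 5 (adjusted p = 0.215). The other 4 tested Sspn probe sets stood at -0.65, 0.00, 0.00 and 0.65, so they did not share a direction.

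Sgce encodes epsilon-sarcoglycan, a relative of alpha-sarcoglycan found in many tissues. Its signals were 213, 222, 210 and 133 on hyperthyroid 1, 2, 3 and 5, against 246, 257, 350 and 257 on control 7, 8, 9 and 11, with no overlap (background 3.23% of probe sets). Sgce differed by -0.53 ± 0.21 on the log2 scale (SE; adjusted p = 0.383), and -0.35 ± 0.18 without hyperthyroid 5. Aqp4, the water channel that is anchored to the complex through syntrophin, had signals of 1584, 1213, 2020 and 1333 on hyperthyroid 1, 2, 3 and 5, against 1945, 1706, 2272 and 2221 on controls 7, 8, 9 and 11. It stood at -0.42 ± 0.17 (adjusted p = 0.392), and its other tested probe sets at -0.88 and -0.44. Astrocytes also express Aqp4, and the astrocyte marker Gfap had 1129, 39.5, 1148 and 13.4 on hyperthyroid 1, 2, 3 and 5, against 708 to 1981 on controls. The part of astrocytes in the Aqp4 values was not tested.

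**Figure D4:**
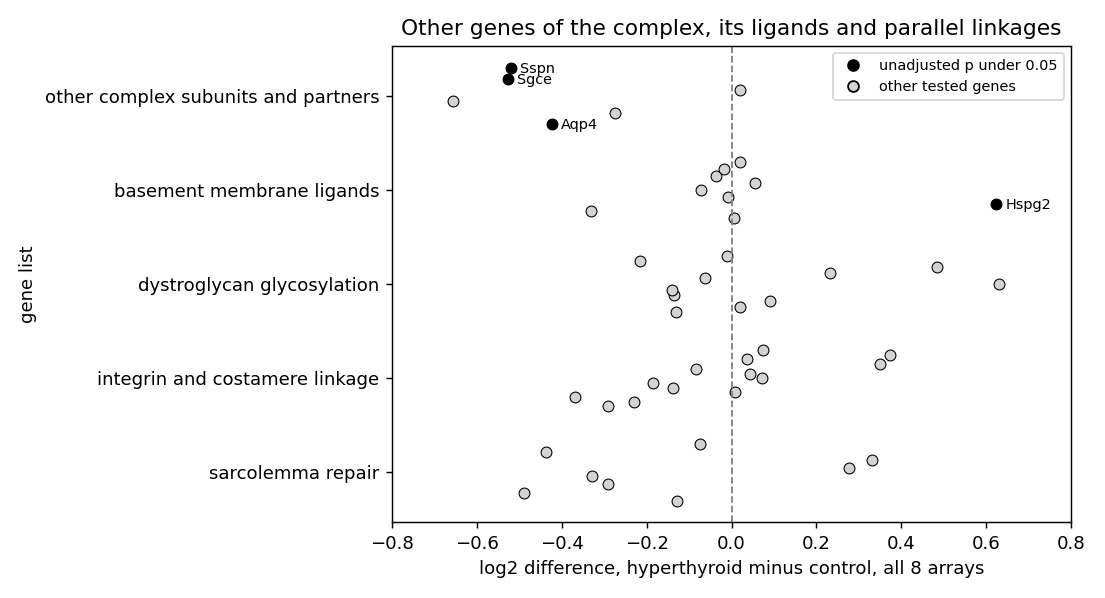
Log2 difference, hyperthyroid minus control on all 8 arrays, of the 47 tested genes in 5 lists, with 1 point per gene (brightest probe set) and a vertical spread for legibility only. Black points had an unadjusted p under 0.05: Sspn (-0.52), Sgce (-0.53), Aqp4 (-0.42) and Hspg2 (0.62). None passed after adjustment.

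Among basement membrane ligands, all 9 genes were tested, with a median of -0.01. Hspg2, which encodes the heparan sulphate proteoglycan perlecan, had signals of 212, 266, 155 and 219 on hyperthyroid 1, 2, 3 and 5, against 115, 139, 118 and 179 on control 7, 8, 9 and 11. Hyperthyroid 3 lay within the control range and the other 3 above it. Hspg2 differed by 0.62 ± 0.22 on the log2 scale (SE; unadjusted p = 0.0174, adjusted p = 0.341), and 0.60 ± 0.24 without hyperthyroid 5. Endothelium also makes perlecan, and the 6 endothelial markers summed to 2375 to 2953 on hyperthyroid arrays against 2108 to 2582 on controls. Their part in the Hspg2 values was not tested. Biglycan (Bgn) stood at -0.33 ± 0.24, and Lama2, the laminin chain of the adult muscle basement membrane, at -0.01 ± 0.15 with signals of 651 to 808 in the hyperthyroid group, against 652 to 947 in controls. Lama4 stood at -0.07 ± 0.21.

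Enzymes of the sugar chain through which alpha-dystroglycan binds laminin had 11 of 17 genes tested and a median of -0.01, with 0 under an unadjusted p of 0.05 on all 8 arrays and 1 of the 11, Pomk, higher without hyperthyroid 5 (background 7.85%). The kinase Pomk, which phosphorylates a mannose of that chain, was closest at 0.48 ± 0.25 (SE; unadjusted p = 0.0795), and at 0.66 ± 0.24 without hyperthyroid 5 (unadjusted p = 0.0188, adjusted p = 0.233), with a second probe set at -0.27. Gmppb, which makes the GDP-mannose used for the chain, stood at 0.63 ± 0.60 and Dpm3, a subunit of the dolichol-phosphate mannose synthase, at -0.14 ± 0.15.

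All 13 genes of the integrin and costamere list, a parallel link between cytoskeleton and matrix, were tested, with a median of 0.01. On all 8 arrays 0 were under an unadjusted p of 0.05. Without hyperthyroid 5, 1 of the 13, Des, was lower at that threshold (background 8.24%). Des, the intermediate filament desmin, had signals of 1507, 2528, 1849 and 3329 on hyperthyroid 1, 2, 3 and 5, against 2835, 3074, 2869 and 2599 on control 7, 8, 9 and 11. It stood at -0.37 ± 0.21 on all arrays and at -0.57 ± 0.16 without hyperthyroid 5 (unadjusted p = 0.00385, adjusted p = 0.149). Hyperthyroid 1, 2 and 3 were below every control and hyperthyroid 5 above every control. Synm, the desmin partner synemin, stood at 0.35 ± 0.19, and Ank3, ankyrin-G, at -0.23 ± 0.18.

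The sarcolemma repair list had 8 of 9 genes tested and a median of -0.21, with 0 under an unadjusted p of 0.05 on all 8 arrays and 2 of the 8, Anxa1 and Anxa2, lower without hyperthyroid 5 (background 8.24%). Anxa6 stood at -0.33 ± 0.16, Anxa2 at -0.49 ± 0.28 and Myof, a relative of dysferlin, at -0.44 ± 0.25. Annexins bind membrane phospholipids in the presence of calcium. Without hyperthyroid 5, Anxa2 was at -0.72 ± 0.24 (adjusted p = 0.195) and Anxa1 at -0.52 ± 0.21 (unadjusted p = 0.0277, adjusted p = 0.264), against -0.13 ± 0.34 for Anxa1 on all 8 arrays. Anxa1 had 3096 on hyperthyroid 5 and 701 to 1345 on the other hyperthyroid arrays, against 1249 to 1674 on controls.

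The genes whose log2 signal over the 8 arrays was most like that of Utrn 1395132_at, out of 10446, were Slc39a6 (Pearson r = 0.977), Col4a6 (r = 0.957) and Slc33a1 (r = 0.956). Those most like Dmd were Kdm4c (r = 0.966), Nln (r = 0.954) and Sft2d3 (r = 0.950), but the Dmd values were dim. These are the highest of many candidates over arrays that share their scaling, and are given as a description.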

How the data were processed

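Total RNA of extraocular muscle was hybridised to Affymetrix rat arrays, 1 per rat. The authors deposited intensities on a linear scale, made with GCOS (scanner software of the array maker, version not given) per the submitters' processing notes. No other upstream step is named in the labels. The trimmed means (2% at each end) were nearly equal, so arrays had been scaled to each other before deposit.

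For the tests, the 57 control probe sets were left out, values were set to at least 1 and taken to log2. The upper 60% of probe sets by mean log2 signal were kept, which left 18625 above a signal of about 28.2. The fit was a linear model in limma 3.58.1 (R 4.3.3), with variances moderated along a trend on signal, two-sided p-values, Benjamini-Hochberg adjustment over all 18625 and a threshold of 0.05. On simulated data with 200 changed probe sets among 18625, 25% of the 2-fold changes and 70% of the 4-fold changes were called, with 1 false call. The number of arrays limits the precision. The replicates are separate animals.

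Of several probe sets, the one with the highest mean log2 signal stood for the gene. Platform annotation named 20826 probe sets with 1 symbol, and 436 with several were not named. All member probe sets are given. A planned exact permutation test of Utrn minus Dmd is not reported, because the Dmd probe set was too dim. From each further gene list the 3 tested genes with the smallest p are named, as no gene passed. Other marker genes, and genes from those lists given for single arrays, were picked with their values in view. The members and lists were chosen with earlier results of these data known. Alternatives covered normalization, filter, offset, variance model, array weights and the log2 Gapdh ratio as a covariate. They also covered averaging the probe sets of a gene, and arrays left out.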

Additional observations from a re-analysis of the deposited data

Results flagged for a closer look

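Among 30 groups of 4 arrays (15 member probe sets in each group), 5 had an array whose log2 signal lay far from the other 3. Chance marks about 1 in 20 where groups are independent and normal. These groups share arrays and genes, so the 5 cannot be read against that rate. Sgca had 1263 on hyperthyroid 2, against 946 to 986 on the other hyperthyroid arrays. The dim Dag1 probe set 1392391_at had 64.9 on hyperthyroid 2, against 21.9 to 26.3 on the others. Dtna 1389737_at had 601 on control 7, against 485 to 498 on the other controls, and Dtna 1380964_at had 535 on control 9, against 334 to 362. The Dmd probe set, also dim, had 2.80 on control 8, against 23.5 to 35.6 on the other controls.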

How the results depend on the processing

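No member probe set and no gene of the further lists passed an adjusted p under 0.05 under any setting. The lowest adjusted p of a tested member in limma was 0.109, for Utrn 1387716_at. On that probe set hyperthyroid 3 and 5 lay under the filter level, and the fit had the Gapdh ratio as a covariate. In that fit the 2 members under an unadjusted p of 0.05 were Utrn 1387716_at and Dag1 1389105_at, and neither was an Sgcb probe set. Over all probe sets, limma called 6 with array weights, 8 with the Gapdh covariate, 9 without hyperthyroid 2 and 5, and between 0 and 29 when 1 array was left out. Sgcb 1384044_at ran from -0.72 to -0.30 over 19 settings, with an unadjusted p under 0.05 in 16, and 1383766_at from -0.44 to -0.21, in 9. Of the 2 members lower at an unadjusted p under 0.05, 0 remained without hyperthyroid 1 and 0 without control 11. Signs turned for Utrn 1395132_at (0.20 without hyperthyroid 2 and 5), Utrn 1387716_at (0.23 without hyperthyroid 5), Dag1 1371430_at (-0.17 with the Gapdh covariate), Sgcb 1374796_at (0.0074 without hyperthyroid 1) and Dtna 1380964_at (0.0018 without hyperthyroid 5). With 1 array left out these ran from -1.26 to 0.23 for Utrn 1387716_at, from -0.12 to 0.0074 for Sgcb 1374796_at and from -0.23 to 0.0018 for Dtna 1380964_at. The cause was not tested. Utrn minus Dmd, 0.45 on all 8 arrays, ran from -0.042 (without hyperthyroid 1) to 1.30 (without control 8) with 1 array left out, but with Dmd above the filter level on only 2 of 8 arrays neither its size nor its stability can be read. Median centring gave 11066 of 18625 probe sets below 0, against 8843 as deposited, and moved the median of all probe sets by -0.12 on the log2 scale. No paired analysis was possible because the groups share no replicate number. Low signal limits Dmd, Utrn 1397947_at, Dag1 1392391_at and Dtna 1391687_at.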
